A study of Mus musculus with 12 samples.

Results

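The Ly6 family surface proteins followed here are 8 genes of the mouse testis, chosen by their NCBI Gene IDs out of 22221 rows of a deposited RNA-sequencing table. Of these, 4 were taken as germ cell members (Tex101, Ly6k, Lypd4 and Spaca4) and 4 as somatic members (Ly6e, Ly6a, Ly6c1 and Ly6g6c). All 8 are in the table and all 8 passed the filter on low values, but Ly6g6c passed it only through the untreated libraries.

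The 12 libraries come from testes of ICR mice, an outbred stock, in 4 groups of 3. In all groups but Con, 3-week-old mice were given busulfan once. The IMA10 mice then received, for 2 weeks, the gut microbiota of mice treated with alginate oligosaccharide (10 mg/kg), the IMC mice that of mice treated with ddH2O, and the Sa mice saline. Testes were taken 3 weeks after the microbiota ended, and Con mice were untreated. Busulfan is an alkylating agent that destroys dividing germ cells and spares most somatic cells of the testis. The age of the Con mice is not given, and nothing says that each library is a different animal. The submitters mention a culture of the testis without describing one. The columns of the untreated group carry another name prefix than those of the busulfan groups, so a batch and the Con group cannot be told apart.

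Proteins of this family are small, secreted or held on the outer face of the cell membrane by a glycosylphosphatidylinositol (GPI) anchor, and they carry a compact domain of disulfide-linked loops that is shared with the urokinase receptor (uPAR). In mouse, TEX101 and LY6K act together on developing germ cells in the quality control of ADAM3, a sperm membrane protein needed for sperm to enter the oviduct, and LYPD4 is needed for the same step. SPACA4 is an acrosomal membrane protein that mouse sperm use to bind and cross the coat of the egg. The somatic relatives LY6E, LY6A (Sca-1) and LY6C1 are known as interferon-inducible or endothelial and leukocyte surface markers.

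The 250 bases before the transcription start of Tex101, Lypd4 and Spaca4 are shown because these germ cell genes sit together in role but not in how far their transcripts changed, and the window of Ly6c1 is set beside them as that of a somatic member. Sequences are from RefSeq (GRCm38.p6, read along the gene's strand, 5′ to 3′). Capitals mark CCAAT or its reverse complement ATTGG. The windows are chr7:24672051-24672300 (minus strand) for Tex101, chr7:24869692-24869941 (minus strand) for Lypd4, chr7:45725817-45726066 (minus strand) for Spaca4 and chr15:75048838-75049087 (minus strand) for the first of the 2 listed starts of Ly6c1.
Tex101: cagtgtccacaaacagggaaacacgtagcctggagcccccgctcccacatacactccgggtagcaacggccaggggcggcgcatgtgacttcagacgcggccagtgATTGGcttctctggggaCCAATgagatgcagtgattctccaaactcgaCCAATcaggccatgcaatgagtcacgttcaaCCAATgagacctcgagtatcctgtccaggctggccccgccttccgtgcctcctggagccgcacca
Lypd4: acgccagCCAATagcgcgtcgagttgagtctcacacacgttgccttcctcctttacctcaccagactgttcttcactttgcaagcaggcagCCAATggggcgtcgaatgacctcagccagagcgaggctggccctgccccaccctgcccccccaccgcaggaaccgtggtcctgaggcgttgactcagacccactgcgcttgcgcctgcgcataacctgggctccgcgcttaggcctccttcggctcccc
Spaca4: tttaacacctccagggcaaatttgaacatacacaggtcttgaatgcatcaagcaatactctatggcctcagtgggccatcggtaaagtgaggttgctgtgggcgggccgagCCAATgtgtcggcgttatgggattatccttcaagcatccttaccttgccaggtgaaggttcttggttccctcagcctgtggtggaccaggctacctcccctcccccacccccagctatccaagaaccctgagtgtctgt
Ly6c1: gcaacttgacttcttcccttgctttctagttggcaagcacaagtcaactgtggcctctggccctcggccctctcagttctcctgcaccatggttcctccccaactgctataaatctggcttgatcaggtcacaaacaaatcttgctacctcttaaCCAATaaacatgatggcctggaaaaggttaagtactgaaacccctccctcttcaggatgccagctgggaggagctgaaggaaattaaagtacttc

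The table of promoters holds 5 of the 8 members. Ly6e, Ly6k and Ly6a are not among them. The Tex101 window holds 4 CCAAT boxes on either strand, the Lypd4 window 2 and the Spaca4 window 1. Among all 32851 promoters in the table, 37.4% hold at least 1 such box within 250 bases before to 50 bases after the start, 11.7% hold at least 2 and 1.06% hold at least 4. CCAAT was searched for after the sequences had been seen. Ly6c1 holds 1 box at its first start and 0 at its second, and Ly6g6c holds 2. GC content is 59.6% in the Tex101 window, 63.6% in that of Lypd4 and 53.6% in that of Spaca4, beside 48.4% in the first Ly6c1 window and a median of 52.4% over all promoters. None of the 5 members has a match on either strand to the core of the interferon-stimulated response element (GAAA, any 2 bases, GAAA; 3.44% of all promoters), TTCNNNGAA, the STAT core (8.3%), or TGACGTCA, the cAMP response element (1.79%). A match or its absence in these letters says nothing about binding.

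One library stands apart from its group, which puts its label in doubt. Over genes, the library labelled IMA10 replicate 3 had r of 0.606 and 0.705 with the other IMA10 libraries, and 0.918 to 0.926 with those of Con. Whether the label is right was not tested, and every IMA10 value over 3 libraries rests on it. On the first principal component, which took 88.6% of the variance of log2(FPKM + 1), IMA10 replicate 3 lay at 81.1 and the remaining 8 busulfan libraries from -127.6 to -24.2, whereas Con covered 161.2 to 167.4. Results that rest on IMA10 are therefore given with and without this library, and IMA10 has 2 libraries when it is left out. Values are FPKM, fragments scaled by transcript length and library total, so levels may be compared between genes, and read depth is unknown. The sum of FPKM per library was 476127 to 519355 in the busulfan groups and 569055 to 576093 in Con. Median-of-ratios scaling, which aligns the typical gene across libraries, put the median log2 fold change of all genes in Sa minus Con at -0.05, against 0.59 as deposited for the same genes. Whole testis was measured, so fewer cells of a type and less RNA per cell cannot be told apart in any value below.

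**Figure D1:**
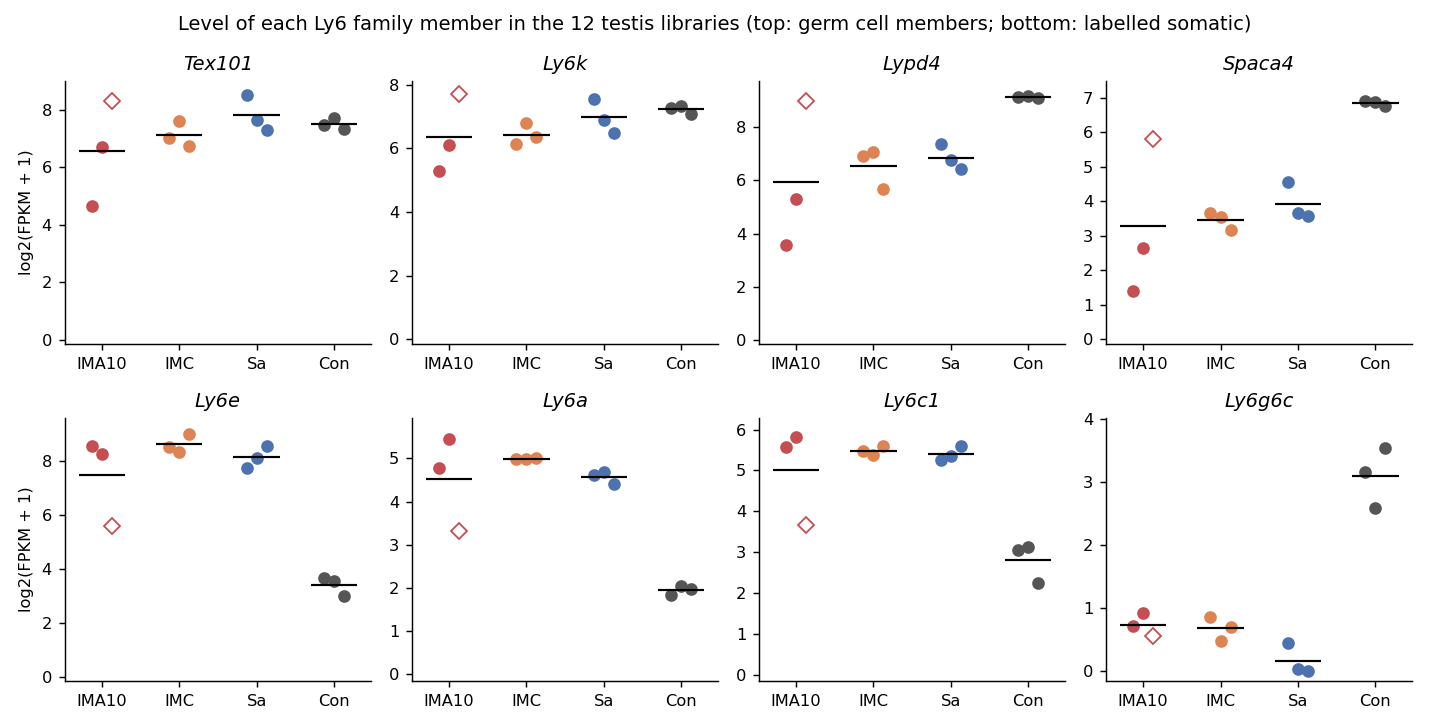
Level of each member, as log2(FPKM + 1), in the IMA10, IMC, Sa and Con libraries (3 points a group; the bar is the mean; the open diamond is IMA10 replicate 3). Lypd4 and Spaca4 lie lower and Ly6e, Ly6a and Ly6c1 higher in all busulfan libraries than in all Con libraries, while Tex101 overlaps between groups.

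Among the germ cell members, Spaca4 was lower than in Con in every busulfan group and Lypd4 in both microbiota groups. Neither Tex101 nor Ly6k passed the test in any comparison over all 12 libraries with FPKM as deposited. In Sa minus Con, 1 of the 4 germ cell members fell and 0 rose, beside 19.2% of all 15472 tested genes called lower and 52.0% called higher (40.3% and 37.0% under median-of-ratios scaling). In IMC minus Con 2 fell (23.3% of all genes, 41.8% under that scaling) and 0 rose (50.8%, 38.3% under that scaling). In IMA10 minus Con 2 fell (23.9%, 38.1% under that scaling) and 0 rose (47.7%, 36.5% under that scaling). Without IMA10 replicate 3, all 4 germ cell members were lower in IMA10 than in Con, as were 35.0% of all genes. Under median-of-ratios scaling the germ cell members lower than Con numbered 2 in Sa, 3 in IMC and 3 in IMA10, and 0 were higher. The 3 comparisons share the Con libraries.

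Tex101 (Gene ID 56746) measured 24.1, 104 and 313 FPKM in IMA10, 127, 194 and 105 FPKM in IMC, 361, 197 and 157 FPKM in Sa and 174, 207 and 159.7 FPKM in Con. The Sa libraries spanned and exceeded the Con range, and the lowest value was that of IMA10 replicate 1. On the log2(FPKM + 1) scale of all fold changes here, Tex101 differed by 0.32 ± 0.73 in Sa minus Con (limma, SE, n = 3 a group, adjusted p = 0.701), and by -0.48 under median-of-ratios scaling (adjusted p = 0.562), so the sign of this difference is not settled. The differences were -0.38 ± 0.73 for IMC minus Con (adjusted p = 0.638) and -0.94 ± 0.73 for IMA10 minus Con (adjusted p = 0.259). Without IMA10 replicate 3, Tex101 was lower in IMA10 than in Con, at -1.82 ± 0.54 (adjusted p = 0.00989).

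Ly6k (76486), the partner of Tex101 in mouse, measured 38.25, 67.8 and 206 FPKM in IMA10, 69.4, 110.3 and 81.4 FPKM in IMC, 187.5, 119 and 89.0 FPKM in Sa and 153, 160.2 and 134 FPKM in Con. All 3 IMC libraries lay under all Con libraries, as did 33.2% of all genes, whereas Sa and IMA10 overlapped Con. The difference was -0.24 ± 0.51 for Sa minus Con (adjusted p = 0.677), -0.79 ± 0.51 for IMC minus Con (adjusted p = 0.178) and -0.86 ± 0.51 for IMA10 minus Con (adjusted p = 0.15). These errors leave room for changes of more than 1 log2 unit, so the values do not show that Ly6k kept its level. Without IMA10 replicate 3 the microbiota differences passed, at -0.79 ± 0.29 for IMC (adjusted p = 0.0264) and -1.53 ± 0.32 for IMA10 (adjusted p = 0.00129). They also passed under median-of-ratios scaling, at -1.51 for IMC (adjusted p = 0.0254) and -1.42 for IMA10 (adjusted p = 0.0351). The IMC difference passed too in a fit of only the IMC and Con libraries (adjusted p = 0.00419).

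Lypd4 (232973) measured 10.9, 38.45 and 505 FPKM in IMA10, 119, 133 and 50.7 FPKM in IMC, 165, 108 and 84.7 FPKM in Sa and 567, 569.5 and 542 FPKM in Con, where it was the most abundant of the 8 members. The 9 busulfan libraries all lay under the Con libraries, IMA10 replicate 3 closest to them. Such a gap towards lower values was found in 18.1% of all genes for IMA10, 33.2% for IMC and 31.3% for Sa. Lypd4 was lower in IMA10 than in Con, at -3.18 ± 1.06 (adjusted p = 0.0219), and at -4.69 ± 0.52 without replicate 3 (adjusted p = 1.28e-05). It was also lower in IMC, at -2.58 ± 1.06 (adjusted p = 0.0476). That call held without IMA10 replicate 3 (adjusted p = 0.000468) and under median-of-ratios scaling (adjusted p = 0.0184). For Sa minus Con the difference was -2.28 ± 1.06 (adjusted p = 0.0751) and did not pass. It passed without IMA10 replicate 3, which brought the SE to 0.47 (adjusted p = 0.0011), and under median-of-ratios scaling, at -3.08 (adjusted p = 0.026). The Sa difference also passed without IMA10 replicate 1 (adjusted p = 0.0241) and in a fit of only the Sa and Con libraries (adjusted p = 4.28e-05). The IMC call was lost when any 1 of the Con, Sa or IMC libraries or IMA10 replicate 2 was left out (adjusted p between 0.058 and 0.143), with a pseudocount of 0.1 (adjusted p = 0.0527) and with no filter on low values (adjusted p = 0.0601). The IMA10 call was lost when any 1 of the Con libraries or IMA10 replicate 1 or 2 was left out (adjusted p between 0.0515 and 0.0766), and in a fit of only the IMA10 and Con libraries (adjusted p = 0.0881).

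Spaca4 (69363) measured 1.63, 5.21 and 55.0 FPKM in IMA10, 11.7, 10.6 and 8.01 FPKM in IMC, 22.5, 11.6 and 10.9 FPKM in Sa and 119, 117 and 107 FPKM in Con. No busulfan library reached the Con range. Spaca4 fell by 2.92 on the log2 scale in Sa minus Con (SE 0.86, adjusted p = 0.0116), by 3.39 in IMC minus Con (SE 0.86, adjusted p = 0.00517) and by 3.57 in IMA10 minus Con (SE 0.86, adjusted p = 0.00471). Leaving out IMA10 replicate 3 put the IMA10 difference at -4.84 ± 0.37 (adjusted p = 8.22e-07). The Spaca4 gene overlaps Fam83e, which also fell in Sa minus Con (-3.20, adjusted p = 0.00306). Lypd4 likewise overlaps Dmrtc2 (-0.83, adjusted p = 0.368). Whether the counting used strand is not stated. Of the 50-base windows of the longest Spaca4 and Lypd4 transcripts in GENCODE M21, 0.0% occur in another gene's transcripts on either strand. Overlaps shorter than 50 bases were not searched for.

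The somatic members formed 2 patterns. Ly6e, Ly6a and Ly6c1 rose in all 3 busulfan groups. Ly6g6c passed the filter only through Con and so had to differ, and its levels are described below without a test. Of the 7 other members, 3 rose in each busulfan group, and 1 fell in Sa, 2 in IMC and 2 in IMA10. Since 47.7% to 52.0% of all genes were called higher in these comparisons (51.6% in IMA10 minus Con without IMA10 replicate 3), the number of rising members is close to the background. The median log2 fold change of all genes was 0.60 in Sa minus Con, 0.52 in IMC minus Con and 0.41 in IMA10 minus Con.

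Ly6e (17069), an interferon-inducible protein that is broadly present on mouse cells, measured 375, 311 and 48.0 FPKM in IMA10, 368, 326 and 516 FPKM in IMC, 217, 280.35 and 374 FPKM in Sa and 11.7, 10.75 and 6.93 FPKM in Con. Even IMA10 replicate 3, the lowest busulfan library, lay above all Con libraries. Ly6e rose by 4.75 ± 0.64 in Sa minus Con (adjusted p = 0.000353), 5.23 ± 0.64 in IMC minus Con (adjusted p = 0.000308) and 4.08 ± 0.64 in IMA10 minus Con (adjusted p = 0.000955, and 5.02 ± 0.28 without replicate 3). By group mean, Ly6e was the most abundant of the 8 members in every busulfan group, at 245 ± 173 FPKM in IMA10, 403 ± 99.9 FPKM in IMC and 290.3 ± 79.0 FPKM in Sa (SD, n = 3 each), against 9.79 ± 2.52 FPKM in Con, where all 4 germ cell members stood above it. Tex101 exceeded Ly6e in Sa replicate 1 (361 against 217 FPKM), and Tex101, Ly6k and Lypd4 did so in IMA10 replicate 3. Ly6e was highest in every other busulfan library.

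Ly6a (110454), the stem cell and endothelial marker Sca-1, measured 26.3, 43.0 and 9.02 FPKM in IMA10, 30.7, 30.7 and 31.1 FPKM in IMC, 23.7, 24.5 and 20.1 FPKM in Sa and 2.59, 3.12 and 2.95 FPKM in Con. Ly6c1 (17067), a marker of endothelium and of monocytes, measured 46.8, 55.1 and 11.8 FPKM in IMA10, 43.3, 40.85 and 47.7 FPKM in IMC, 37.1, 40.2 and 47.7 FPKM in Sa and 7.36, 7.77 and 3.72 FPKM in Con. Neither gene overlapped Con in any busulfan group, and 49.3% of all genes lay higher without overlap in IMA10, 55.1% in IMC and 56.9% in Sa. Ly6a rose by 2.61 ± 0.42 in Sa minus Con (adjusted p = 0.000452) and Ly6c1 by 2.60 ± 0.48 (adjusted p = 0.000902). The rises were 3.04 for Ly6a and 2.68 for Ly6c1 in IMC minus Con, and 2.56 and 2.21 in IMA10 minus Con, with adjusted p between 0.000308 and 0.00279. These paralogs lie next to each other on chromosome 15 and share sequence. Of the 50-base windows of the longest transcript in GENCODE M21, 36.7% for Ly6c1 also occur in Ly6c2 or Ly6a, and 10.0% for Ly6a occur in another gene such as Ly6c1 or Ly6i, so the division of reads among them is uncertain. For Ly6k 29.2% of the windows occur in the predicted gene Gm17189, and for the other 5 members 0.0% occur elsewhere.

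Ly6g6c (68468), encoded in the major histocompatibility complex on chromosome 17, measured 0.65, 0.89 and 0.47 FPKM in IMA10, 0.82, 0.40 and 0.62 FPKM in IMC, 0.36, 0.03 and 0.00 FPKM in Sa and 7.93, 5.03 and 10.6 FPKM in Con. All Con libraries lay above all busulfan libraries, and no busulfan library reached the 1 FPKM that the filter asks for. Its levels were thus lower in the busulfan libraries, like those of Lypd4 and Spaca4, where those of the other 3 members taken as somatic were higher. Whether Ly6g6c belongs with the somatic members was not tested.

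**Figure D2:**
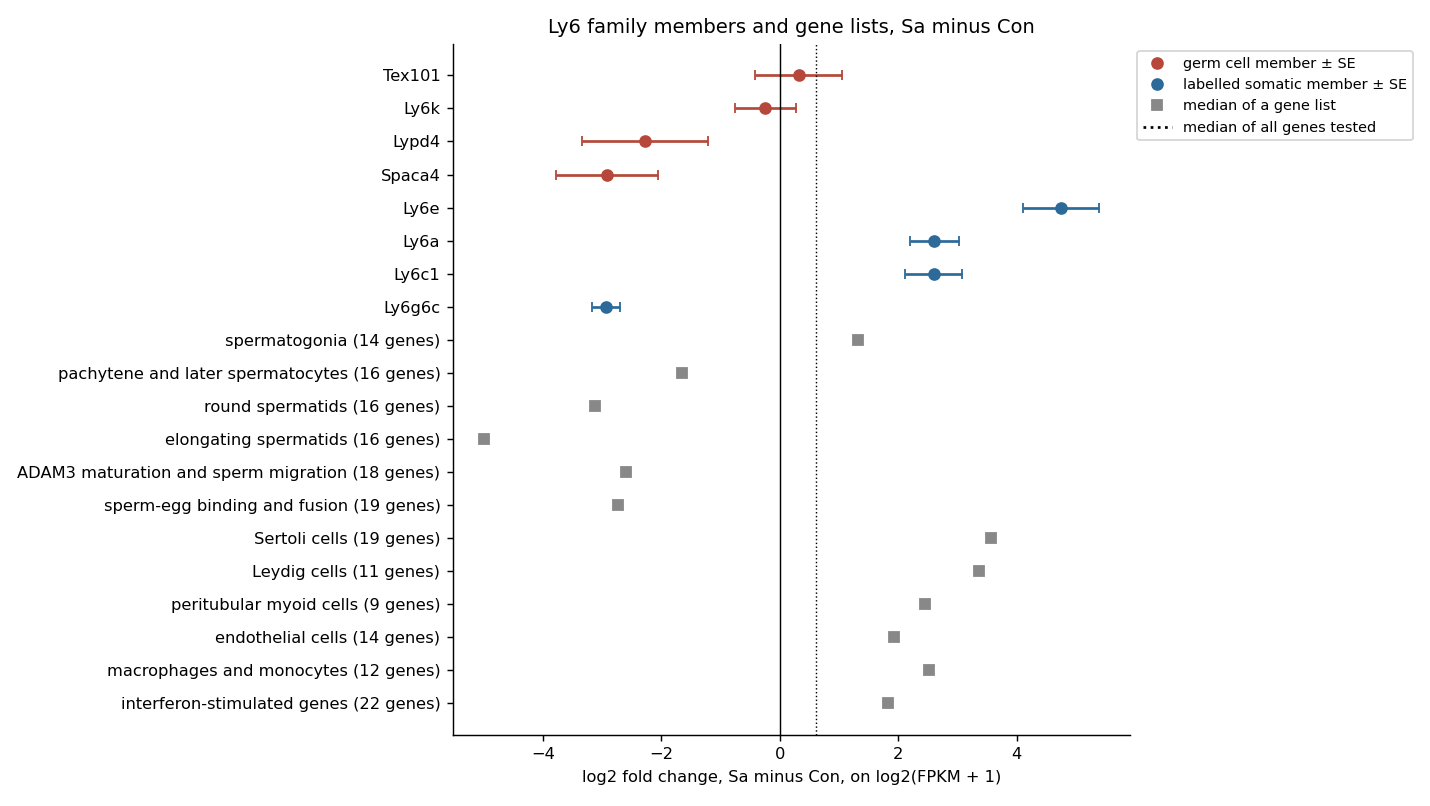
Log2 fold change in Sa minus Con of the 8 members (circles with SE, germ cell members in red, members labelled somatic in blue) and the median of 12 gene lists (grey squares; all lists share the Con and Sa libraries). Ly6g6c is plotted as a description, since it passed the filter only through Con. Ly6e at 4.75 lies above the medians of all lists shown, Spaca4 at -2.92 lies near the round spermatid median of -3.12, and Tex101 at 0.32 (-0.48 under median-of-ratios scaling) lies between the pachytene median of -1.65 and the spermatogonial median of 1.33.

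Ratios between members within a library do not depend on scaling between libraries. Tex101 stood at 0.620 to 2.70 times the FPKM of Lypd4 in IMA10, 1.07 to 2.06 times in IMC and 1.83 to 2.18 times in Sa, against 0.295 to 0.364 times in Con. The order of these 2 genes was thus turned round in all busulfan libraries except IMA10 replicate 3. Relative to Spaca4, Tex101 stood at 14.4 to 17.0 times in Sa and 1.46 to 1.77 times in Con, and Ly6k at 8.19 to 10.2 times in Sa and 1.25 to 1.37 times in Con. Lypd4 over Spaca4 was 7.33 to 9.30 in Sa and 4.76 to 5.06 in Con. Between the somatic members, Ly6e stood at 5.84 to 7.83 times Ly6c1 in Sa and 1.38 to 1.86 times in Con, while Ly6a over Ly6c1 overlapped, with 0.421 to 0.638 in Sa and 0.352 to 0.793 in Con. A total of 9 pairs was compared over 6 comparisons. For Sa minus Con, 8 of the pairs had an exact two-sided permutation p = 0.1, the smallest that 3 against 3 libraries allow (0.216 adjusted over the 54 comparisons), and Ly6a over Ly6c1 had an exact p = 0.8 (0.919 adjusted).

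**Figure D3:**
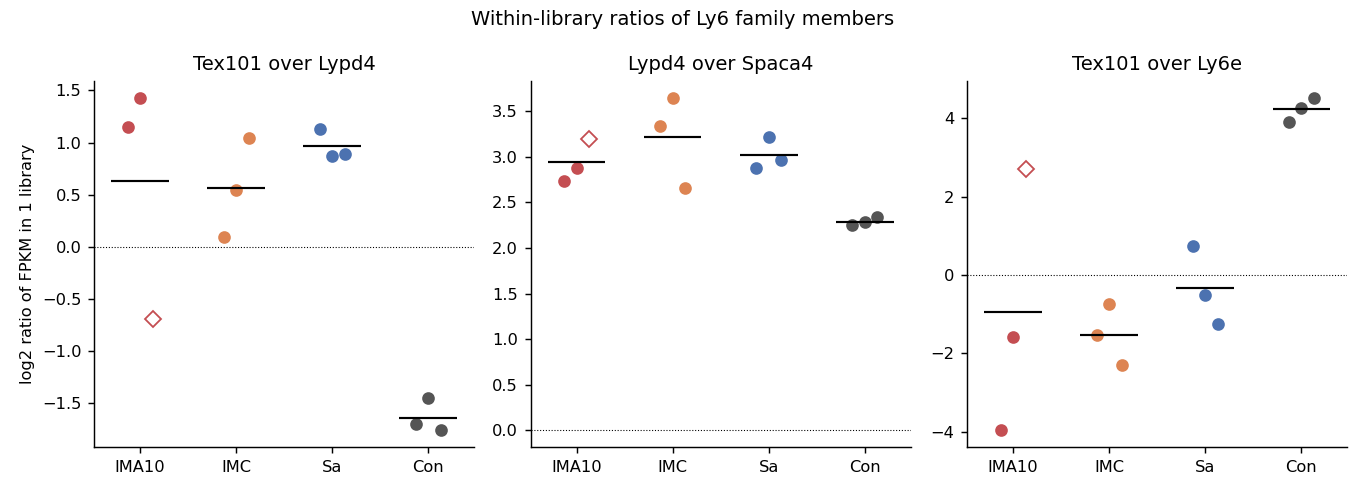
Log2 ratio of FPKM between pairs of members in each of the 12 libraries, by group (bar: mean; open diamond: IMA10 replicate 3; dotted line: equal FPKM). Tex101 over Lypd4 is positive in all IMC and Sa libraries and negative in Con, and Tex101 over Ly6e has a mean of -0.34 in Sa and 4.23 in Con.

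As one measure, the mean log2(FPKM + 1) of the 4 germ cell members minus that of the 4 somatic members was -1.18, 0.07 and 4.40 in IMA10, 0.97, 1.45 and 0.41 in IMC, 2.48, 1.68 and 1.31 in Sa and 4.76, 4.94 and 4.88 in Con. IMA10 replicate 3 lay close to Con and the other 8 busulfan libraries well under it. Since Ly6g6c was lower in the busulfan libraries, it pulls this measure towards a smaller change. With Ly6g6c set aside, which was decided after its values were seen, the group means were -0.14 in IMA10, -0.48 in IMC, 0.35 in Sa and 4.95 in Con.

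Markers of other cells moved along with these members, and their part in the results was not tested. In Sa minus Con 52.0% of all genes were called higher and 19.2% lower (55.7% and 30.0% without IMA10 replicate 3). Of the spermatid lists, 13 of 16 round spermatid genes and 16 of 16 elongating spermatid genes fell in Sa minus Con and 0 rose, with medians of -3.12 and -4.998. The summed FPKM of the round spermatid list was 223.0 to 522.6 in Sa and 4160 to 4409 in Con, and Tssk6, a spermatid kinase, fell by 5.01 (adjusted p = 0.000697). Of 16 genes of pachytene and later spermatocytes 3 fell (14 without IMA10 replicate 3), among them Pgk2, the testis form of a glycolytic kinase (-3.51, adjusted p = 0.00994), and 12 of 14 spermatogonial genes rose, with Uchl1 at 2.33 (adjusted p = 0.000224). Under median-of-ratios scaling 8 spermatogonial genes were higher and 2 lower (37.0% and 40.3% of all genes). Spaca4 lay -0.31 to 0.13 log2 units from the round spermatid mean in Sa and -0.48 to -0.35 in Con. Tex101, by contrast, lay 2.55 to 3.06 above the spermatocyte mean in Sa and 0.60 to 0.99 above it in Con, and Lypd4 1.68 to 1.94 above it in Sa and 2.36 to 2.44 in Con.

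Among somatic cells, 19 of 19 Sertoli, 11 of 11 Leydig, 8 of 9 peritubular myoid, 13 of 14 endothelial and 12 of 12 tested macrophage and monocyte genes rose in Sa minus Con, with medians of 3.56, 3.36, 2.45, 1.93 and 2.51. The remaining myoid gene fell. Of all genes, 52.0% were called higher in Sa minus Con and 19.2% lower. Inha, an inhibin subunit of Sertoli cells, rose by 4.41, Nr5a1, a Leydig cell factor, by 3.58, Cdh5, an endothelial cadherin, by 2.36 and C1qc, a macrophage complement gene, by 3.13 (adjusted p between 0.000336 and 0.000396). The summed FPKM of the Sertoli list was 12110 to 14680 in Sa and 799.2 to 953.8 in Con, and that of the endothelial list 156.7 to 246.5 in Sa and 36.95 to 45.56 in Con, with no marker of either list at 0. Ly6e lay 0.15 to 0.73 above the Sertoli mean in Sa and -1.08 to -0.62 from it in Con. Ly6a lay 0.72 to 1.44 above the endothelial mean in Sa and 0.02 to 0.34 above it in Con, and Ly6c1 lay 1.93 to 2.08 above the endothelial mean in Sa and 0.60 to 1.29 above it in Con. Relative to the macrophage mean, Ly6c1 lay 0.88 to 1.23 above in Sa and 0.38 to 1.25 above in Con. Blood and fat lists were small: of 4 erythrocyte genes 2 rose (Hba-a1 by 2.76, adjusted p = 0.000502), 2 of 4 adipocyte genes rose and 2 fell, and the 1 neutrophil and 2 epididymis genes tested did not pass. Of 11 lymphocyte genes in the table, 10 were below the filter, so the list gives no direction. Cd3d, the 1 that was tested, fell, while Cd3e averaged 0.377 FPKM in Sa and 0.11 FPKM in Con, and Cd3g 0.36 FPKM in Sa and 0.02 FPKM in Con. Ly6g, the neutrophil member of the Ly6 family, was listed at 0 in all IMC, Sa and Con libraries.

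The genes that work with these proteins changed unevenly. Of 18 genes of ADAM3 maturation and sperm migration, 10 fell and 1 rose in Sa minus Con, with a median of -2.60. Of all genes, 19.2% were called lower and 52.0% higher. Ace, whose testis form takes TEX101 off mouse sperm, fell by 2.59 (SE 0.19, adjusted p = 3.86e-05) to a mean of 42.65 FPKM in Sa, against 261.7 FPKM in Con. Calr3, a chaperone of ADAM3 in mouse, fell by 3.31 (SE 0.27, adjusted p = 5.92e-05). Adam3 itself had means of 57.2 FPKM in Sa and 360.4 FPKM in Con and fell by 2.67 (SE 1.09, adjusted p = 0.0478); it lies outside the rule for named genes and was added for its role. Cmtm2a, the most abundant gene of this list, was at -2.23 (adjusted p = 0.085). Without IMA10 replicate 3, 17 of the 18 genes fell, as did 30.0% of all genes. Tex101 was not among the genes that changed in Sa minus Con in either fit (adjusted p = 0.552 without that library). Of 19 genes of sperm-egg binding and fusion, 14 fell and 0 rose (19.2% and 52.0% of all genes), with a median of -2.73. SPACA4 acts in the binding and crossing of the egg coat, and the list also holds genes of fusion. Spaca6, needed in mouse for the fusion of sperm and egg, fell by 1.74 (SE 0.28, adjusted p = 0.000457), Izumo3, which mouse acrosome formation needs, by 3.30 (SE 0.78, adjusted p = 0.00361), and Acrbp, a proacrosin-binding protein, was at -2.18 (adjusted p = 0.0882).

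Of 27 tested genes that build or attach GPI anchors, 16 rose and 4 fell in Sa minus Con, beside 52.0% and 19.2% of all genes. Their median was 0.85, close to that of all genes. Pigq, which takes part in the first step of anchor synthesis, rose by 2.09 (adjusted p = 0.000353), and Pigu and Pigt, subunits of the transamidase that attaches the anchor, by 1.28 and 1.95 (adjusted p = 0.000364 and 0.000398). Under median-of-ratios scaling the split was 12 higher and 10 lower (37.0% and 40.3% of all genes). Of 22 tested interferon-stimulated genes, 19 rose and 0 fell, with a median of 1.83. Bst2, a membrane protein that tethers virus, rose by 2.85 (adjusted p = 0.000398), Gbp2, a guanylate-binding protein, by 2.10 (adjusted p = 0.000553) and Ifitm3, which restricts virus entry, by 2.55 (adjusted p = 0.000587). Ly6e lay 5.02 to 5.64 log2 units above the mean of this list in Sa and 1.78 to 2.30 above it in Con, and Ly6a 1.49 to 1.88 above it in Sa and 0.48 to 0.78 in Con.

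Beyond the 8 members, 40 of 49 further genes of the Ly6 and uPAR domain family are in the table and 18 passed the filter. In Sa minus Con 5 were called higher and 7 lower (4 and 9 under median-of-ratios scaling, where Pate6 had an adjusted p = 0.0725, and 5 and 10 without IMA10 replicate 3). Of all genes, 52.0% were called higher and 19.2% lower (37.0% and 40.3% under that scaling, and 55.7% and 30.0% without that library). Most of these calls are of genes under 1 FPKM in 1 of the 2 groups. Ly6m, Ly6g6f, Lypd8, Pate2 and Pate14 reached 1 FPKM in Con and in 0 Sa libraries. These 5 needed Con to pass the filter, so their falls are not independent of it. Ly6c2, Ly6d, Ly6h, Lynx1 and Pate6 reached it in Sa and in 0 Con libraries, and Ly6g6d in neither. The 5 genes reaching it in Sa also did so in IMC. They passed the filter only through busulfan groups, so their higher values there are not independent of it either. Among them, Ly6c2 overlapped between Sa and Con and did not pass (adjusted p = 0.0917). Ly6d measured 5.03, 6.81 and 6.32 FPKM in Sa and 0.50, 0.29 and 0.58 FPKM in Con, and Ly6h 1.29, 2.34 and 5.71 FPKM in Sa and 0.07, 0.00 and 0.00 FPKM in Con.

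Among the 7 family genes that reached 1 FPKM in both groups, 1 rose and 2 fell, beside 52.0% and 19.2% of all genes. Cd59a, an inhibitor of complement lysis, rose by 2.54 (adjusted p = 0.00208), with 28.0, 37.8 and 45.1 FPKM in Sa and 5.68, 5.02 and 5.50 FPKM in Con, and Cd59b and Pinlyp fell. The 3 most abundant in Con were Lypd9, Lypd10 and Lypd11. Lypd9 measured 40.3, 23.4 and 18.5 FPKM in Sa and 132, 114 and 121 FPKM in Con, a difference of -2.19 ± 1.07 that did not pass (adjusted p = 0.0866). It passed under median-of-ratios scaling, at -2.98 (adjusted p = 0.0304), and without IMA10 replicate 3 (adjusted p = 0.00106). Lypd10 was at -1.12 (adjusted p = 0.256, but 0.0215 without that library) and Lypd11 at -1.02 (adjusted p = 0.33).

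**Figure D4:**
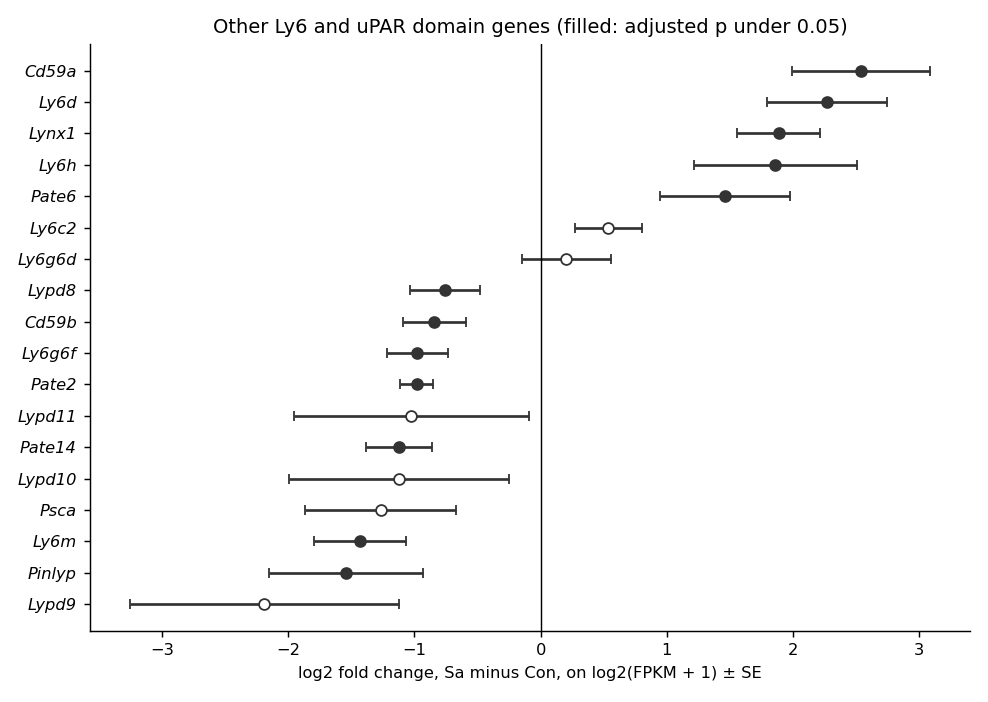
Log2 fold change in Sa minus Con, with SE, of the 18 other Ly6 and uPAR domain genes that passed the filter; filled points had an adjusted p under 0.05. The 5 genes called higher lie between 1.46 and 2.54 and the 7 called lower between -1.54 and -0.76. Of these 12, all but Cd59a, Cd59b and Pinlyp were under 1 FPKM in all libraries of 1 of the 2 groups.

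Between busulfan groups, no member passed over all 12 libraries. In IMC minus Sa, 0 of 8 members passed (limma; 0.0% of all genes) and 0 had an unadjusted p under 0.05 (0.866% of all genes). The germ cell members lay between -0.70 for Tex101 and -0.30 for Lypd4, and Ly6e, Ly6a, Ly6c1 and Ly6g6c at 0.48, 0.43, 0.08 and 0.52. Ly6a and Ly6g6c were higher in all IMC than in all Sa libraries, a pattern that 3.32% of all genes share. In IMA10 minus Sa 0 members passed (0.0%) and 1, Ly6g6c, had an unadjusted p under 0.05 (6.0% of all genes), at 0.57 ± 0.24 with no overlap between the groups (0.633% of all genes). Ly6g6c was under 1 FPKM in every busulfan library and was tested only because Con was high. Its differences here and in IMC minus Sa thus lie near the floor and are no more than a description. In IMA10 minus IMC 0 members passed (0.0%) and 0 had an unadjusted p under 0.05 (2.12%).

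The comparison of IMA10 with Sa turns on 1 library. Without IMA10 replicate 3, all 4 germ cell members were lower in IMA10 than in Sa (24.7% of all genes were) and 1 somatic member was higher (7.38%). This fit has 2 IMA10 libraries. In it, 16 of 16 round spermatid genes, 14 of 16 genes of pachytene and later spermatocytes and 10 of 14 spermatogonial genes were lower as well, and 0 were higher. Lypd4 was at -2.42 ± 0.52 (adjusted p = 0.0136), Tex101 at -2.13 ± 0.54 (adjusted p = 0.0192), Spaca4 at -1.91 ± 0.37 (adjusted p = 0.0136) and Ly6k at -1.28 ± 0.32 (adjusted p = 0.0187). Ly6a was higher by 0.55 ± 0.18 (adjusted p = 0.0421). Replicate 3 had more of each germ cell member than replicates 1 and 2 by wide margins, with 505 FPKM of Lypd4 beside 10.9 and 38.45. For IMA10 minus IMC without that library, Lypd4 was at -2.12 ± 0.52 and Spaca4 at -1.44 ± 0.37 (adjusted p = 0.0731 for both), which did not pass.

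**Figure D5:**
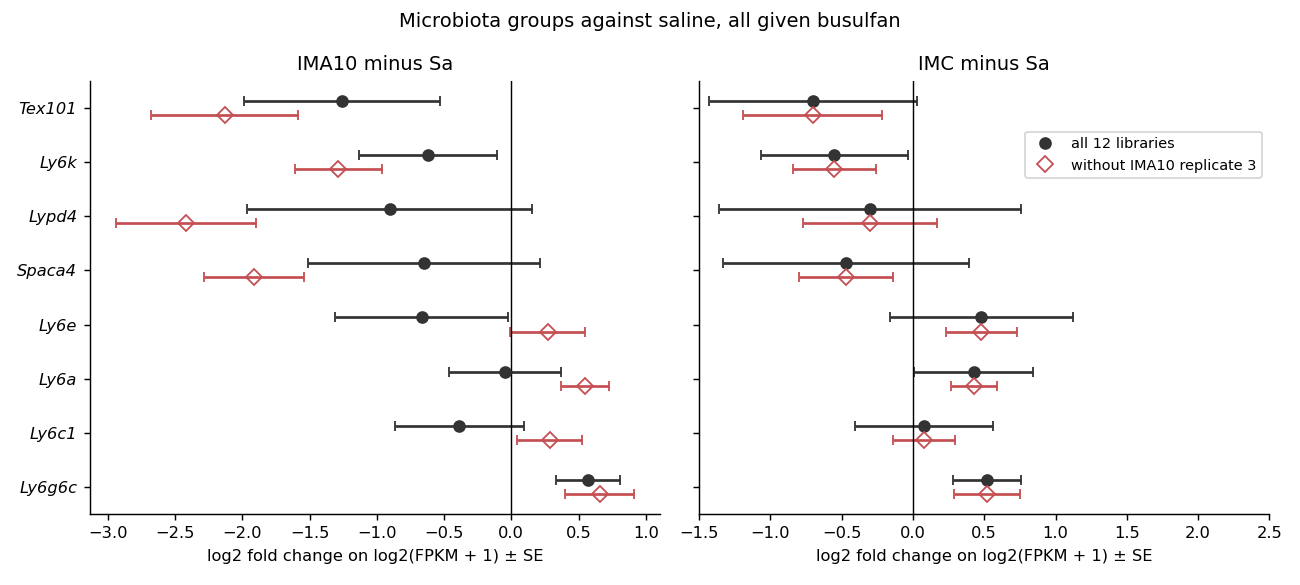
Log2 fold change of the 8 members, with SE, in IMA10 minus Sa and IMC minus Sa, over all 12 libraries (filled circles) and without IMA10 replicate 3 (open diamonds). Leaving that library out moves the 4 germ cell members in IMA10 minus Sa to between -2.42 and -1.28 and turns Ly6e, Ly6a and Ly6c1 to positive differences, while the IMC differences keep their values and their errors become smaller.

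Genes with profiles most like each member were found by the root mean square distance between gene-centred log2(FPKM + 1) values over the 12 libraries. For Tex101 these were Ube2t (0.13), Gml (0.14), itself a member of this family though not in the list of 49, and Mov10l1 (0.18). For Ly6k they were Urb2, Dnph1 and Urb1 (0.14 to 0.16). Lypd4 had the closest profiles of all, Dnali1 and Gtf2a1l (0.04 each) and Cmtm2a (0.06), and Spaca4 had Atp6v1e2, Spatc1l and Tssk4 (0.10 to 0.14). Nearest to Ly6e were Aqp5, Serpina3n and Cnn3 (0.22 to 0.26), to Ly6a Cd2ap, Cdkn1b and Hspd1 (0.19 to 0.20), and to Ly6c1 Id3, Pyurf and Nhsl1 (0.14 to 0.17). Ly6g6c had no gene closer than Cpeb3 at 0.34. Between members, the closest pairs were Ly6a with Ly6c1 (0.33), Tex101 with Ly6k (0.42) and Lypd4 with Spaca4 (0.43), and Ly6e lay 2.65 or more from each germ cell member. Ly6g6c lay 1.16 to 1.46 from the germ cell members and 2.30 to 3.27 from the others taken as somatic. Its busulfan values were all under 1 FPKM, and it passed the filter only through Con. Its profile thus had to be highest in Con, and these distances are no more than a description. All libraries share the split between busulfan and Con, so a small distance says mainly that 2 genes differ alike across it. Gml, which lies beside Ly6k on chromosome 15, measured a mean of 52.6 FPKM in Sa and 46.9 FPKM in Con, a difference of 0.08 that did not pass (adjusted p = 0.93).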

How the data were processed

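RNA of 12 mouse testis libraries was analysed from 1 table of FPKM values, which the authors deposited with 1 column per library; the unit is named in the file headers. For the aligner, counting program, strand setting, annotation and build the sources used here give nothing. Depth is unknown. A search of low values for steps of 1 read gave none: of 3745 genes at low FPKM in both Con libraries compared, the most frequent ratio other than 1 was shared by 31 (0.828%). FPKM divides by the library total, so a fall in abundant transcripts raises all others. Symbols were attached through NCBI Gene IDs (20141 of 22221 rows) in a RefSeq table (GRCm38.p6), used for names and neighbours; promoters come from RefSeq. No protein sequence was used here.

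Values were tested as log2(FPKM + 1) in limma 3.58.1 under R 4.3.3, allowing a trend in the variance, 1 mean per group over all 12 libraries. Genes had to reach 1 FPKM in 3 or more libraries (15472 did). P-values were adjusted by Benjamini-Hochberg over all genes tested, with a threshold of 0.05. Where libraries are not known to be separate animals, p-values describe only how these samples vary, which can be technical. The procedure was tested on simulated data.

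The members, gene lists and tests were chosen with earlier results of these data known. Genes named are the 8 members, the 6 most abundant of a list of 49 other family genes (Gml is not in that list), the 2 smallest p and the highest level of each list, the 3 nearest profiles of each member and the nearest genes; those named outside this rule (Adam3, Ly6g, Cd3e, Cd3g and the family genes beyond those 6) were added after their values were seen. Alternatives were median-of-ratios scaling, a pseudocount of 0.1, no filter, a replicate block, a fit of just the 2 groups in question, and leaving out each library in turn. Ly6g6c was left out of the germ to somatic measure as an alternative chosen after seeing the data.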

Additional observations from a re-analysis of the deposited data

How the results depend on the processing

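Counting Ly6g6c, which had to differ from Con, the numbers of members called were within 1.5 times the main count under median-of-ratios scaling, a pseudocount of 0.1, no filter and fits of only the groups compared. Leaving out 1 library at a time put the members lower in Sa minus Con at 1 to 3, in IMC minus Con at 1 to 4 and in IMA10 minus Con at 1 to 5. The value of 1 came without any 1 Con library, when Ly6g6c no longer passed the filter and, for both microbiota groups, the Lypd4 call was lost. Without IMA10 replicate 3 these counts were 3, 4 and 5, and IMA10 minus Sa stood at 1 higher and 4 lower, against 0 and 0 with the other libraries left out. Of all genes, 30.0%, 32.2% and 35.0% were called lower than Con in that fit, and 7.38% higher and 24.7% lower in IMA10 minus Sa. No such share is given here for the other leave-one-out fits or the replicate block. The germ to somatic measure was 2.47 in Sa and 5.07 in Con with a pseudocount of 0.1, and without Ly6g6c -0.48 in IMC, 0.35 in Sa and 4.95 in Con.

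Median-of-ratios scaling turned the sign of Tex101 in Sa minus Con (-0.48), Ly6k in IMA10 minus IMC (0.088) and Ly6a in IMA10 minus Sa (0.18), none of which passed; the cause was not tested. Leaving out single libraries turned the sign of further differences that did not pass. Their ranges were -0.027 to 0.57 for Tex101 and -0.53 to 0.0039 for Ly6k in Sa minus Con, -1.82 to 0.0085 for Tex101 in IMA10 minus Con, and -0.56 to 0.13 for Lypd4 in IMC minus Sa. In IMA10 minus Sa they were -2.42 to 0.29 for Lypd4, -1.91 to 0.29 for Spaca4, -1.20 to 0.27 for Ly6e, -0.52 to 0.55 for Ly6a and -0.78 to 0.29 for Ly6c1. In IMA10 minus IMC they were -1.43 to 0.39 for Tex101, -0.73 to 0.47 for Ly6k, -2.12 to 0.59 for Lypd4, -1.44 to 0.76 for Spaca4, -0.94 to 0.12 for Ly6a, -0.86 to 0.21 for Ly6c1 and -0.048 to 0.14 for Ly6g6c.

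Deviations of same-numbered libraries correlated between -0.765 and 0.546 over genes, so no steady pairing by replicate number was seen. These values cannot exclude that same-numbered libraries were handled together. With the replicate number as a block, 3 members were higher and 2 lower in Sa minus Con, and 3 higher and 2 lower in IMC minus Con (where Lypd4 had an adjusted p = 0.0731). In IMA10 minus Con 3 were higher and 3 lower, and between busulfan groups 0 passed in either direction. Each count of lower members includes Ly6g6c, which passed the filter only through Con and so had to differ. Depth is unknown, and with 3 libraries a group the SE of 0.73 for Tex101 and 0.51 for Ly6k limits how small a change could be detected.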
